A study of Homo sapiens with 9 samples.

Results

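The 9 genes described here are marker and regulator genes of the epithelial-mesenchymal transition (EMT): CDH1, CDH2, VIM, FN1, TGFBI, ZEB1, SNAI2, TGFB1 and TGFB2. They were chosen by gene name, with earlier results of these data known, and are 9 of the 58735 genes in the table of raw counts. All 9 were found once each, and 8 passed the filter on low counts in every comparison. SNAI2 did not pass it in any. The libraries came from A549, an established human lung adenocarcinoma cell line, transfected with jetPRIME, a reagent that carries plasmid DNA into cells. The control group (3 libraries, titled PC3) received the control plasmid, labelled by treatment as PC3.1, PC3.2 or PC3.3. The LINC00996 group (3 libraries, titled L996) received a plasmid for the long non-coding RNA LINC00996, and the AP001189.3 group (3 libraries, titled RP11) a plasmid for the long non-coding RNA AP001189.3. All groups thus share the cell line and the transfection, and only 1 cell line was used. No label says that the libraries of a group came from separate cultures, so the p-values measure only the spread between these libraries, which may be technical.

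In EMT, epithelial cells take down the junctions that hold them to their neighbours and take on the shape and matrix of migrating mesenchymal cells. Transcription factors of the ZEB, SNAI and TWIST families bind E-box motifs and repress E-cadherin, while N-cadherin, vimentin and fibronectin are widely used as mesenchymal markers. TGF-beta is the best known inducer of the programme, acting through SMAD proteins, and A549 is a common model in which TGF-beta induces it. A549 cells are carcinoma cells that express epithelial and mesenchymal markers together.

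The total counts per library ranged from 15272450 to 18125447. LINC00996 had 9, 8 and 4 counts with the control plasmid against 5239, 4373 and 5952 in the LINC00996 libraries, and AP001189.3 had 0, 2 and 1 counts with the control plasmid against 1660, 1931 and 2378 in its own group, so each plasmid gene was high where the labels place it. LINC00996 replicate 1 stood apart: its counts differed from replicates 2 and 3 by a chi-square per gene of 22.4 and 33.3, against 3.32 between replicates 2 and 3 and 2.27 to 7.32 within the other groups. Calls that change without it are given with and without it. All 5 epithelial markers checked (EPCAM, KRT7, KRT8, KRT18 and KRT19) were present, and their sum was 8126 to 8217 CPM among control libraries, 8184 to 11001 with LINC00996 and 8807 to 9022 with AP001189.3, where CPM are counts scaled to library size by TMM factors. The highest sum was that of LINC00996 replicate 1, which had 111613 counts of KRT8 against 68386 and 79577 in replicates 2 and 3. KRT19 was lower in LINC00996 against control (log2 fold change -0.40, edgeR adjusted p = 0.0256), and the other markers of the 5 did not pass an adjusted p of 0.05. Leukocyte markers summed to 8.32 to 14.7 CPM over all 9 libraries, with 2 of 7 at no more than 3 counts in any. Fibroblast markers summed to 24.2 to 26.8 CPM with the control plasmid, 16.6 to 18.6 CPM with LINC00996 and 22.1 to 25.9 CPM with AP001189.3, mostly from COL1A1, a collagen gene that fell with LINC00996 (log2 fold change -0.62, edgeR adjusted p = 0.00635). COL3A1, the other fibroblast marker tested there, had a log2 fold change of 0.51 and did not pass (edgeR adjusted p = 0.136). In such bulk RNA, fewer cells of a kind and less RNA per cell cannot be told apart.

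Promoter sequence is shown for ZEB1 and FN1, members that were lower together in the LINC00996 group, because ZEB1 is a factor that reads the E-box and FN1 is the most abundant of the 9 genes. RefSeq promoter entries (GRCh38.p14) were present for 7 of the 9 genes, and CDH1 and SNAI2 had none. The windows were the 250 bases before each RefSeq start, and both strands were searched for the E-box CAGGTG, the SMAD motifs CAGAC and GTCTAGAC, the AP-1 motif TGANTCA and, added after the sequences had been seen, the cyclic AMP response element TGACGTCA. For ZEB1 the window is chr10:31318167-31318416 on the plus strand, upstream of the annotated gene, one of several RefSeq starts of ZEB1. For FN1 it is the 146 bases at chr2:215436173-215436318 on the minus strand that lie upstream of the annotated gene, out of its 250-base window. Capitals mark the E-box in ZEB1 and the cyclic AMP response element in FN1.
ZEB1 promoter: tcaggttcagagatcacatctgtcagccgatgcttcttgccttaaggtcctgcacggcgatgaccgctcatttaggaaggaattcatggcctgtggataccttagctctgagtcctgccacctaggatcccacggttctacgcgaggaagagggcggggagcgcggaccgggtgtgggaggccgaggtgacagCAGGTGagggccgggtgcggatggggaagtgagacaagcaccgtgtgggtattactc
FN1 promoter: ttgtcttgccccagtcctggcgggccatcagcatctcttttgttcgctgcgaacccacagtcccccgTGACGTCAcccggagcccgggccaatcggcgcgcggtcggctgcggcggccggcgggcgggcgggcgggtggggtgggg

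The E-box in this ZEB1 window began 57 bases before the RefSeq start. Of the 7 ZEB1 windows in the table, 2 held CAGGTG and 3 held CAGAC, so the window shown is 1 of 2 with an E-box. CAGGTG was present in 17.5% of the 35116 promoter windows of the same length, and no CAGGTG was found in the windows of FN1, VIM, CDH2, TGFB1, TGFB2 and TGFBI. The response element of FN1 began 183 bases before its start, and TGACGTCA was present in 1.65% of all windows. Neither window shown held CAGAC (38.0% of all windows), GTCTAGAC (0.182%) or TGANTCA (6.57%). These matches describe letters in a window and say nothing of binding in these cells.

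The level of the genes was compared per length as FPKM, the fragment counts scaled by gene length and library size that the authors deposited. In the control group the mean FPKM was highest for FN1, at 402 ± 10.5 (SD, n = 3), followed by TGFBI at 193 ± 2.36, VIM at 80.2 ± 1.85 and TGFB1 at 75.1 ± 7.59. VIM and TGFB1 did not differ beyond their spread, while the other neighbours in this order did. CDH1 had 51.0 ± 0.954 FPKM, CDH2 21.7 ± 0.789, TGFB2 8.56 ± 0.366, ZEB1 5.70 ± 0.134 and SNAI2 0.109 ± 0.0515. Among the 29332 genes with an FPKM above 0 in the control group, FN1 ranked 62, VIM 409, CDH1 687 and ZEB1 6388, so the cells held abundant RNA of a junction gene and of mesenchymal genes at the same time.

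**Figure D1:**
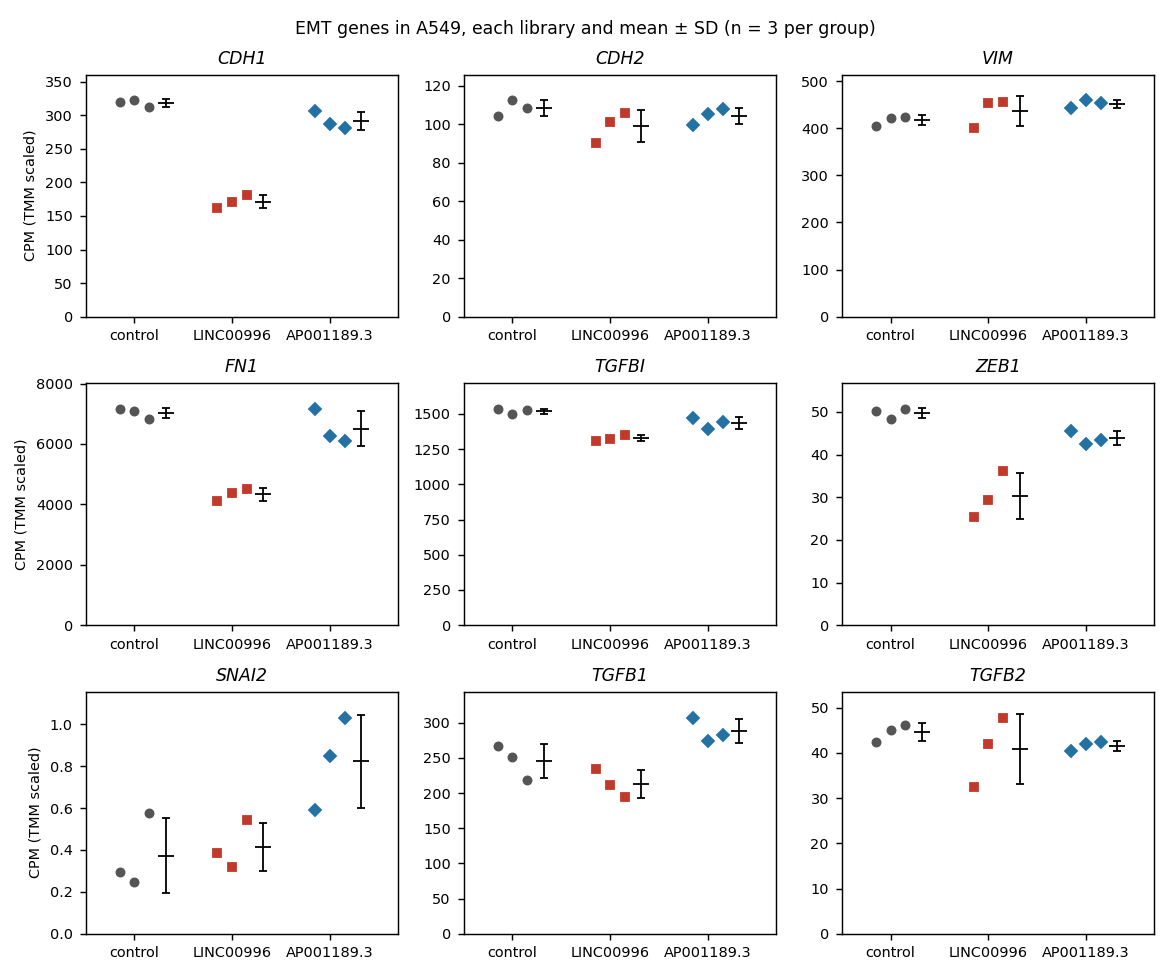
Level of the 9 EMT genes in CPM (counts scaled to library size by TMM factors, linear axes from 0) in each of the 3 libraries of the control, LINC00996 and AP001189.3 groups, with the mean ± SD in black. CDH1, FN1, TGFBI and ZEB1 sit lower in all LINC00996 libraries than in any control library, and VIM and CDH2 overlap between these groups.

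CDH1, FN1 and ZEB1 were the 3 of 8 genes tested that passed the threshold in LINC00996 against control, all of them lower. With AP001189.3, 1 of 8 passed against control, TGFB1, which was higher. As background, 22.3% of the 16097 genes tested passed in LINC00996 against control, 10.7% higher and 11.6% lower, and 19.8% of 16023 genes passed in AP001189.3 against control, 11.4% higher and 8.49% lower. Scaled by total counts alone, 2006 genes were called higher and 1669 lower in the first comparison, against 1722 and 1866 here, and 1608 and 1719 in the second, against 1819 and 1361. The share of the 8 genes that passed in the first comparison is thus above its background and that in the second below it, but 8 genes are too few to read more than that from either share. Because the genes were chosen with earlier results of these data known, neither share is an independent test. All tests were edgeR's quasi-likelihood test, the threshold was an adjusted p of 0.05, and the adjustment (Benjamini-Hochberg) covered every gene tested.

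CDH1 (ENSG00000039068, GRCh38 chromosome 16, 68737225 to 68835548, plus strand) encodes E-cadherin, the calcium-dependent adhesion protein of epithelial adherens junctions. With the control plasmid its counts were 5439, 5165 and 5413, with LINC00996 they were 2948, 2691 and 3355, and with AP001189.3 they were 5181, 4415 and 4622. Every LINC00996 library was below every library of the other groups. In CPM, the control mean was 318 ± 5.47 (SD, n = 3), the LINC00996 mean 171 ± 10.1 and the AP001189.3 mean 292 ± 13.4. CDH1 was 1.86-fold lower in LINC00996 against control (log2 fold change -0.89, SE 0.09, 95% interval -1.08 to -0.70, edgeR adjusted p = 2.92e-05). The AP001189.3 difference from control was -0.13 on the log2 scale (SE 0.05, interval -0.23 to -0.02), which did not pass the threshold (edgeR adjusted p = 0.0789), although all 3 AP001189.3 libraries were below the control libraries in CPM. Without AP001189.3 replicate 1 it was -0.16 and passed (edgeR adjusted p = 0.0303), as it did with library size alone (0.0318).

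CDH2 (ENSG00000170558, chromosome 18, 27950966 to 28177446, minus strand) encodes N-cadherin, the cadherin that often takes the place of E-cadherin in mesenchymal cells. With the control plasmid its counts were 1772, 1804 and 1885, with LINC00996 they were 1643, 1595 and 1956, and with AP001189.3 they were 1688, 1615 and 1776. The 3 groups overlapped. The log2 fold change was -0.13 in LINC00996 against control (SE 0.10, interval -0.34 to 0.08, edgeR adjusted p = 0.363) and -0.06 in AP001189.3 against control (SE 0.06, edgeR adjusted p = 0.538). The lower level of CDH1 in the LINC00996 group was thus not accompanied by a detectable difference in CDH2, for which the interval allows a rise of at most 0.08 on the log2 scale.

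VIM (ENSG00000026025, chromosome 10, 17228259 to 17237593, plus strand) encodes vimentin, the intermediate filament protein of mesenchymal cells. With the control plasmid its counts were 6886, 6783 and 7361, with LINC00996 they were 7301, 7129 and 8428, and with AP001189.3 they were 7474, 7048 and 7491. In CPM the control and LINC00996 libraries overlapped, at 417 ± 10.3 and 437 ± 31.5, while the AP001189.3 libraries, at 452 ± 8.74, were all above the control libraries. Neither difference passed the threshold: the log2 fold change was 0.06 (SE 0.09, interval -0.12 to 0.25, edgeR adjusted p = 0.645) for LINC00996 and 0.11 (SE 0.05, interval 0.02 to 0.21, edgeR adjusted p = 0.0935) for AP001189.3. The antisense gene VIM-AS1, which overlaps VIM, had 6 to 22 counts per library.

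FN1 (ENSG00000115414, chromosome 2, 215360440 to 215436172, minus strand) encodes fibronectin, a matrix protein that integrins bind through an RGD motif. With the control plasmid its counts were 121469, 113707 and 118594, with LINC00996 they were 74817, 68992 and 83029, and with AP001189.3 they were 120981, 96205 and 100439. The LINC00996 libraries were all below the rest, and 1 AP001189.3 library lay at the top of the control range. The mean fell from 7024 ± 171 CPM (SD, n = 3) to 4328 ± 204 CPM in the LINC00996 group, which was 1.62-fold lower (log2 fold change -0.70, SE 0.07, interval -0.86 to -0.54, edgeR adjusted p = 5.30e-05). The fibroblast marker sum was lower in the same libraries, and its part in the result was not tested. In the AP001189.3 group the mean was 6506 ± 570 CPM and the log2 fold change -0.11 (SE 0.05, edgeR adjusted p = 0.140). Without AP001189.3 replicate 1, that library, it was -0.19 with an edgeR adjusted p of 0.00294.

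TGFBI (ENSG00000120708, chromosome 5, 136028895 to 136063818, plus strand) encodes the TGF-beta-induced matrix protein, an adhesion protein named for its response to TGF-beta. Its counts were 26046, 24065 and 26482 with the control plasmid, 23855, 20844 and 24911 with LINC00996 and 24909, 21335 and 23744 with AP001189.3. In CPM the LINC00996 libraries, at 1308 to 1350, did not overlap the control libraries, at 1500.0 to 1534, or the AP001189.3 libraries, at 1389 to 1474. The difference was small and did not pass the threshold in LINC00996 against control (log2 fold change -0.20, SE 0.07, interval -0.36 to -0.04, edgeR adjusted p = 0.0772). Without LINC00996 replicate 1 it was -0.18 with an edgeR adjusted p of 0.00652, with an offset for the GC content of the genes -0.19 with 0.0108, and with all 9 libraries in 1 fit -0.20 with 0.0307. For AP001189.3 the log2 fold change from control was -0.08 (SE 0.05, edgeR adjusted p = 0.214).

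ZEB1 (ENSG00000148516, chromosome 10, 31318495 to 31529814, plus strand) encodes a zinc finger and homeobox transcription factor that represses CDH1. Its counts were 852, 777 and 880 with the control plasmid, 463, 462 and 666 with LINC00996 and 771, 651 and 717 with AP001189.3. The LINC00996 libraries spread widely, with a coefficient of variation in CPM of 17.9% against 2.38% in the control group, but none reached the other groups in CPM. ZEB1 was 1.64-fold lower in LINC00996 against control, at 30.3 ± 5.41 CPM against 49.8 ± 1.18 CPM (log2 fold change -0.72, SE 0.13, interval -1.0 to -0.44, edgeR adjusted p = 0.00221). In the AP001189.3 group it stood at 43.8 ± 1.63 CPM, below every control library, with a log2 fold change of -0.18 (SE 0.07, interval -0.32 to -0.04) that did not pass the threshold (edgeR adjusted p = 0.0620). The repressor and its known target CDH1 were thus both lower in the LINC00996 group. ZEB1-AS1, an antisense gene that overlaps the start of ZEB1, had 60 to 102 counts per library, and because the library kit as described does not mark strand, reads of overlapping parts cannot be told apart.

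SNAI2 (ENSG00000019549, chromosome 8) encodes Slug, an E-box-binding repressor of the SNAI family. Its counts were 5, 4 and 10 among control libraries, 7, 5 and 10 in the LINC00996 libraries and 10, 13 and 17 in the AP001189.3 libraries. These counts are near the limit of detection at this depth, and the mean was 0.373 CPM, 0.414 CPM and 0.823 CPM in that order. The AP001189.3 libraries were above the control libraries in CPM, but with no filter on low counts the log2 fold change of 1.13 had an edgeR adjusted p of 0.260, so no difference was detectable.

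TGFB1 (ENSG00000105329, chromosome 19, 41301587 to 41353911, minus strand) encodes the ligand TGF-beta 1. With the control plasmid its counts were 4521, 4030 and 3796, with LINC00996 they were 4271, 3329 and 3592, and with AP001189.3 they were 5193, 4208 and 4650. In CPM the control libraries lay at 219 to 266, the LINC00996 libraries at 195 to 234, overlapping them, and the AP001189.3 libraries at 274 to 307, above both. TGFB1 was 1.17-fold higher in AP001189.3 against control (log2 fold change 0.23, SE 0.06, interval 0.10 to 0.36, edgeR adjusted p = 0.0131). In LINC00996 against control the log2 fold change was -0.20 (SE 0.10, interval -0.43 to 0.02, edgeR adjusted p = 0.190), and without LINC00996 replicate 1 it was -0.27 with an edgeR adjusted p of 0.00432. With an offset for GC content fitted in each library, this difference was -0.23 and also passed (edgeR adjusted p = 0.0178).

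The relation of the libraries to base composition differed between the AP001189.3 and control groups. The longest TGFB1 transcript is 63.5% G and C, the highest of the 9 genes, against a median of 48.5% over the 16552 genes with a value. Across genes, the deviation of a library from the mean of all libraries correlated with GC content by a Spearman rho of 0.204 to 0.353 in the AP001189.3 libraries and of -0.277 to -0.004 in the controls. With an offset for GC content fitted in each library, the log2 fold change of TGFB1 in AP001189.3 against control was 0.01 (edgeR adjusted p = 0.911), and its call was lost. Without AP001189.3 replicate 1 it was 0.18, also without the call (edgeR adjusted p = 0.0760). The GC offset takes out any group difference that follows GC content, so a technical and a biological difference of that kind cannot be told apart. HNRNPUL1, on the other strand, overlaps the end of TGFB1 and had 5259 to 10739 counts per library.

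TGFB2 (ENSG00000092969, chromosome 1, 218346235 to 218444619, plus strand) encodes TGF-beta 2, a ligand of the same receptors. Its counts were 718, 723 and 801 with the control plasmid, 593, 661 and 882 with LINC00996 and 682, 643 and 699 with AP001189.3. LINC00996 held both the lowest and the highest library, with a coefficient of variation in CPM of 18.9% against 4.46% in the control group. The log2 fold change was -0.13 in LINC00996 against control (SE 0.14, interval -0.42 to 0.17, edgeR adjusted p = 0.544) and -0.10 in AP001189.3 against control (SE 0.07, edgeR adjusted p = 0.366). LINC00996 replicate 1, whose GC correlation was 0.428, had the highest TGFB1 CPM of its group and the lowest of TGFB2, ZEB1, CDH1, CDH2, VIM, FN1 and TGFBI, genes of 38.5% to 50.6% G and C. The part of base composition in the spread of these genes was not tested.

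**Figure D2:**
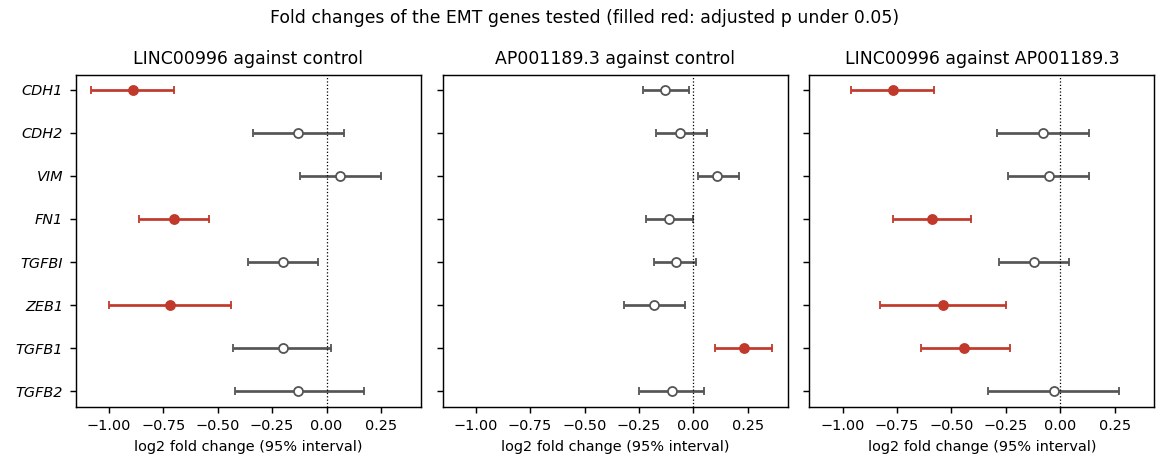
Log2 fold changes (x axis) of the 8 EMT genes tested in the 3 comparisons, with 95% intervals from the edgeR fit; filled red points passed the adjusted p threshold of 0.05. CDH1, FN1 and ZEB1 lie between -0.89 and -0.70 in LINC00996 against control and within 0.18 of 0 in AP001189.3 against control.

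The plasmid groups were also compared directly, which tests the difference between their effects. In LINC00996 against AP001189.3, 4 of 8 genes passed, all lower in LINC00996, beside 21.4% of the 16095 genes tested, 9.38% higher and 12.1% lower. CDH1 differed by a log2 fold change of -0.77 (SE 0.09, edgeR adjusted p = 8.92e-05), FN1 by -0.59 (SE 0.08, edgeR adjusted p = 0.000443), ZEB1 by -0.54 (SE 0.13, edgeR adjusted p = 0.0133) and TGFB1 by -0.44 (SE 0.09, edgeR adjusted p = 0.00608). CDH2, VIM, TGFB2 and TGFBI lay between -0.12 and -0.03 and did not pass. The ZEB1 call was lost without LINC00996 replicate 2 (edgeR adjusted p = 0.0603) and without AP001189.3 replicate 1 or 3 (0.0765 and 0.0572), and the TGFB1 call without AP001189.3 replicate 1 (0.0517). Under the GC offset TGFB1 differed by -0.25 and passed (edgeR adjusted p = 0.00700). Over all genes, 1510 were called higher and 1942 lower, a split that turned to 2129 and 1667 when libraries were scaled by their total counts alone.

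Ratios of counts within a library do not depend on the scaling between libraries. The ratio of CDH1 to VIM was 0.790, 0.761 and 0.735 with the control plasmid, 0.404, 0.377 and 0.398 with LINC00996 and 0.693, 0.626 and 0.617 with AP001189.3. The 3 groups did not overlap in this ratio, with LINC00996 lowest. The ratio of CDH1 to CDH2 was 2.86 to 3.07 with the control plasmid, 1.69 to 1.79 with LINC00996 and 2.60 to 3.07 with AP001189.3, and the LINC00996 libraries did not overlap the others. FN1 to TGFBI, a ratio of matrix genes, was 4.48 to 4.72, 3.14 to 3.33 and 4.23 to 4.86 in the same order. ZEB1 to VIM was 0.115 to 0.124, 0.0634 to 0.0790 and 0.0924 to 0.103, without overlap, whereas TGFB1 to TGFB2, at 4.74 to 6.30, 4.07 to 7.20 and 6.54 to 7.61, overlapped between LINC00996 and both other groups. The first 4 ratios show that the genes of each pair did not change equally in the LINC00996 group, and not which of them changed.

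**Figure D3:**
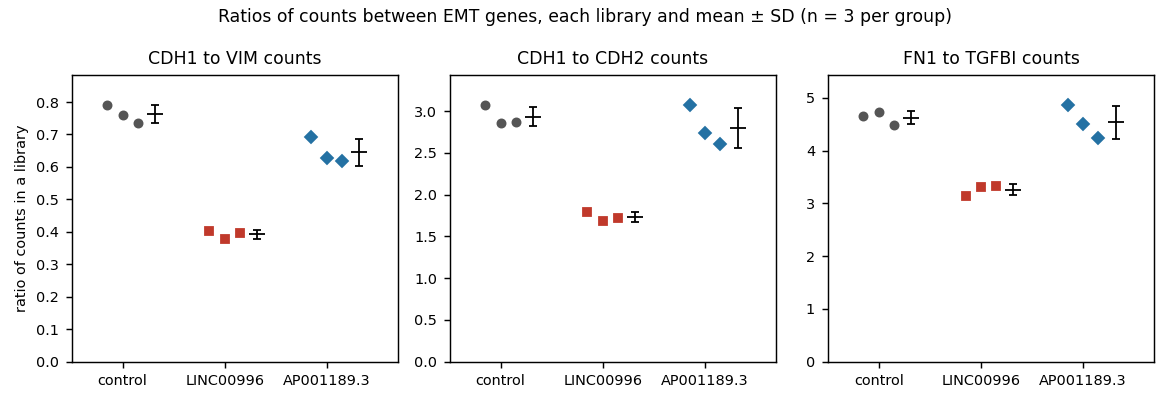
Ratio of counts in each library (linear axes from 0) for CDH1 to VIM, CDH1 to CDH2 and FN1 to TGFBI in the 3 groups, with the mean ± SD in black (n = 3). The LINC00996 libraries are lowest in the 3 ratios plotted, at 0.377 to 0.404 for CDH1 to VIM.

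The genes around these 9 were described by 8 lists of 171 related genes, without the 9 themselves. The lists were also chosen with earlier results of these data known, so their shares beside those of all genes are a description and no independent test. In LINC00996 against control, 12 of the 151 related genes tested rose (7.95%) and 40 fell (26.5%), beside 10.7% and 11.6% of all genes tested, with a median log2 fold change of -0.15. Without LINC00996 replicate 1, 18 of 155 rose and 64 fell, beside 15.9% and 17.3% of all genes, and under the GC offset 27 of 151 rose and 55 fell, beside 19.2% and 18.2%. Without any 1 control replicate 5 to 7 rose and 30 or 31 fell, beside 4.84% to 5.59% and 6.77% to 7.56% of all genes. With AP001189.3, 38 of 152 rose (25.0%) and 13 fell (8.55%), beside 11.4% and 8.49% of all genes, with a median of 0.09. With any 1 library left out 23 to 37 rose and 4 to 13 fell, the fewest without AP001189.3 replicate 2 (23 and 4, beside 7.51% and 4.13% of all genes) and control replicate 2 (23 and 7, beside 7.54% and 4.46%), and 37 and 13 without control replicate 1, beside 12.1% and 9.80%. Under the GC offset 25 rose and 12 fell with a median of 0.01, beside 7.60% and 7.68% of all genes, and with all 9 libraries in 1 fit 8 of 155 rose and 1 fell, beside 2.08% and 0.562%. The counts of each list below are to be read beside the same shares of all genes. The medians over all genes tested were 0.01 and -0.00. Some genes stand in more than 1 list.

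Among the EMT transcription factors, 1 of 10 tested rose and 4 fell in LINC00996 against control. ZEB2, the paralog of ZEB1, fell from 8.04 ± 0.607 CPM to 3.09 ± 0.784 CPM (log2 fold change -1.38, edgeR adjusted p = 0.000686), and FOXC1, a developmental factor, fell by 0.73 on the log2 scale. AP001189.3 gave 3 that rose and 1 that fell against control, among them SOX4 (log2 fold change 0.31, edgeR adjusted p = 0.000166) and TWIST2 (-0.49, edgeR adjusted p = 0.00299). With all 9 libraries in 1 edgeR fit, 0 of 11 rose and 0 fell with AP001189.3, so these calls were lost. SOX4 was also the factor that rose with LINC00996, by 0.38. Without control replicate 1, 2 or 3, 0 factors rose and 4 fell with LINC00996, and without LINC00996 replicate 3, 2 rose and 4 fell.

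Of the junction genes, 1 of 26 tested rose and 6 fell with LINC00996. The tight junction genes CLDN4 and CLDN1, which encode claudins, and TJP3, which encodes a scaffold protein, had log2 fold changes of -0.95, -0.60 and -0.70. CDH1 was thus accompanied by other junction genes, with most of the list not past the threshold. Without control replicate 1, 2 or 3 or without LINC00996 replicate 2 the count that fell was 3, and without LINC00996 replicate 1 it was 11. With AP001189.3, 4 of 26 rose and 4 fell, with CLDN4 higher by 0.34 and PARD3, a polarity gene, lower by 0.21, and 0 to 3 rose and 1 to 4 fell with any 1 library left out. With all 9 libraries in 1 edgeR fit, 0 of 27 rose and 0 fell.

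Of the epithelial regulators and keratins, 1 of 16 tested rose and 7 fell with LINC00996. The Kruppel-like factor KLF4 fell from 71.8 ± 2.99 CPM to 34.8 ± 0.687 CPM (log2 fold change -1.04, edgeR adjusted p = 2.03e-05), KLF5 had a log2 fold change of -0.81, and SPINT1, an inhibitor of epithelial serine proteases, one of -1.24. Leaving out LINC00996 replicate 1, 1 rose and 9 fell. With AP001189.3, 5 of 16 rose and 2 fell, while under the GC offset 2 rose and 2 fell with a list median of -0.17, with all 9 libraries in 1 fit 1 rose and 0 fell, and without AP001189.3 replicate 2, 5 rose and 0 fell. KLF4 was higher there, by 0.34 (edgeR adjusted p = 0.000172), as was the keratin KRT80, by 0.33. The difference in KLF4 between the plasmid groups was -1.39 (edgeR adjusted p = 2.16e-06).

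The mesenchymal genes were split. With LINC00996, 6 of 27 tested rose and 6 fell, and by the smallest adjusted p the former included THBS1 (thrombospondin 1, log2 fold change 0.67, edgeR adjusted p = 0.00102) and the latter LOX (lysyl oxidase, -0.91, 0.00137) and FBN1 (fibrillin 1, -0.53, 0.00222). Without LINC00996 replicate 1 the counts were 5 and 11. Without control replicates 1, 2 and 3 in turn they were 3 and 4, 3 and 5, and 4 and 3, and under the GC offset 9 and 10. The fibroblast marker COL1A1 is also 1 of the 6 that fell. With AP001189.3, 7 of 28 rose and 1 fell, with the smallest adjusted p for COL5A1, a fibrillar collagen (0.45, edgeR adjusted p = 5.32e-07), and AXL, a receptor tyrosine kinase (0.37, edgeR adjusted p = 0.000184). The 7 became 2 without AP001189.3 replicate 2, 4 without AP001189.3 replicate 3, 3 without control replicate 2, 2 with all 9 libraries in 1 fit and 4 under the GC offset.

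The genes of TGF-beta signalling were followed from ligand to target. Of the ligands and the genes of their latency and activation, 2 of 22 tested rose and 6 fell with LINC00996. Without LINC00996 replicate 1, 4 rose and 8 fell, without control replicate 2 or 3, 1 rose and 5 fell, with all 9 libraries in 1 fit 4 rose and 6 fell, and under the GC offset 6 rose and 7 fell. FST (follistatin, an activin antagonist) fell by 1.41 on the log2 scale, BMP2, a bone morphogenetic protein, by 1.30 and LRRC32, which holds latent TGF-beta at the cell surface, by 1.70. INHBA, the activin A subunit, was low in all groups and moved in opposite directions, from 1.99 ± 0.0899 CPM among control libraries to 0.851 ± 0.215 CPM with LINC00996 (edgeR adjusted p = 0.0152) and 4.11 ± 0.862 CPM with AP001189.3 (log2 fold change 1.05, edgeR adjusted p = 0.00220). With AP001189.3, 4 of 22 rose and 1 fell, and the number that rose was 2 under the GC offset, 6 without control replicate 1, 1 without control replicate 2, 2 without AP001189.3 replicate 1 or 2 and 1 with all 9 libraries in 1 fit.

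Of the receptors and SMAD signalling genes, 0 of 26 tested rose and 4 fell with LINC00996 by the edgeR test. By DESeq2, 0 rose and 5 fell, beside 5.16% and 5.71% of the 32659 genes in that fit. At an unadjusted p under 0.05 the counts were 2 and 9, for which no share of all genes is given. ACVRL1, a type I receptor best known from endothelial cells, had the largest log2 fold change of the 4 called by edgeR, -2.75 (SE 0.21, edgeR adjusted p = 5.24e-06), from 13.6 ± 1.48 CPM to 2.00 ± 0.592 CPM. With AP001189.3 the log2 fold change of ACVRL1 was -0.03 (edgeR adjusted p = 0.909). PECAM1, an endothelial marker, fell with LINC00996 (log2 fold change -1.42, edgeR adjusted p = 0.000284) and with AP001189.3 (-0.80, edgeR adjusted p = 0.000703). CDH5, the other endothelial marker tested, did not pass with LINC00996 (-0.49, edgeR adjusted p = 0.125) or AP001189.3 (-0.09, edgeR adjusted p = 0.818). The summed endothelial markers were 11.8 to 13.1 CPM in control libraries, 5.26 to 6.61 CPM with LINC00996 and 7.42 to 9.58 CPM with AP001189.3, and 3 of the 5 had at most 3 counts in every library. Their part in the result was not tested. SMAD3, a signal transducer of TGF-beta, fell from 666 ± 49.3 CPM to 477 ± 6.48 CPM (log2 fold change -0.48, edgeR adjusted p = 0.00192), and SMURF1, a ubiquitin ligase that acts on SMAD proteins, had a log2 fold change of -0.36. Leaving out LINC00996 replicate 1, 2 rose and 9 fell, and without control replicate 1 or 2 the number that fell was 2. With AP001189.3, 2 of 26 rose and 3 fell, with the receptor TGFBR2 lower by 0.33 and the inhibitor SMAD7 higher by 0.45, and 1 to 4 fell with any 1 library left out. With all 9 libraries in 1 edgeR fit, 0 rose and 1 fell.

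Known TGF-beta target genes close the pathway. With LINC00996, 1 of 23 tested rose and 5 fell. PLAUR, the urokinase receptor, and COL4A1, a basement membrane collagen, had log2 fold changes of -1.02 and -0.60. Without LINC00996 replicate 1, 1 rose and 10 fell, without LINC00996 replicate 3, 3 rose and 4 fell, and under the GC offset 3 rose and 7 fell. Without control replicate 1, 2 or 3, 1 rose and 4 fell. With AP001189.3, 13 of 23 rose and 1 fell, with the smallest adjusted p for CYR61, a matricellular protein (0.87, edgeR adjusted p = 3.08e-07), and COL4A2 (0.44, edgeR adjusted p = 1.08e-06). The 13 were 8 under the GC offset, 4 with all 9 libraries in 1 fit and 9 to 12 with any 1 library left out. Compared directly, 10 of 23 targets were lower in LINC00996 than in AP001189.3 and 0 higher by the edgeR test, beside 12.1% and 9.38% of all genes. By DESeq2, 10 were lower and 0 higher, beside 5.68% and 4.43% of the 32915 genes in that fit. At an unadjusted p under 0.05 the counts were 14 and 1, for which no share of all genes is given. Without LINC00996 replicate 1 the edgeR test gave 17 lower and 3 higher, beside 21.3% and 20.3% of all genes.

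Of the receptors that bind RGD proteins such as fibronectin, 0 of 8 tested rose and 3 fell with LINC00996 by the edgeR test. By DESeq2, 0 rose and 3 fell, beside 5.16% and 5.71% of the 32659 genes in that fit. Without LINC00996 replicate 1 the edgeR test gave 3 and 3, beside 15.9% and 17.3% of all genes. At an unadjusted p under 0.05 the counts were 3 and 3, for which no share of all genes is given. ITGA5, the alpha subunit of the classical fibronectin receptor, fell from 345 ± 16.3 CPM to 159 ± 14.3 CPM (log2 fold change -1.12, edgeR adjusted p = 1.14e-05), so that FN1 and ITGA5 were lower together. SDC4, a syndecan co-receptor of fibronectin, had -1.13 and ITGB8, an integrin that activates latent TGF-beta, -0.88. The other integrin genes tested did not pass: ITGB1, ITGAV and ITGB5 had 0.24, 0.27 and 0.21, and ITGB3 and ITGB6 had -0.50 and -0.02. With AP001189.3, 2 of 8 rose, SDC4 by 0.22 and ITGB5 by 0.15, a count that was 0 without control replicate 2, 1 without control replicate 1 or AP001189.3 replicate 2 or 3, 1 under the GC offset and 0 with all 9 libraries in 1 fit, while ITGA5 had a log2 fold change of 0.01 (edgeR adjusted p = 0.922).

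**Figure D4:**
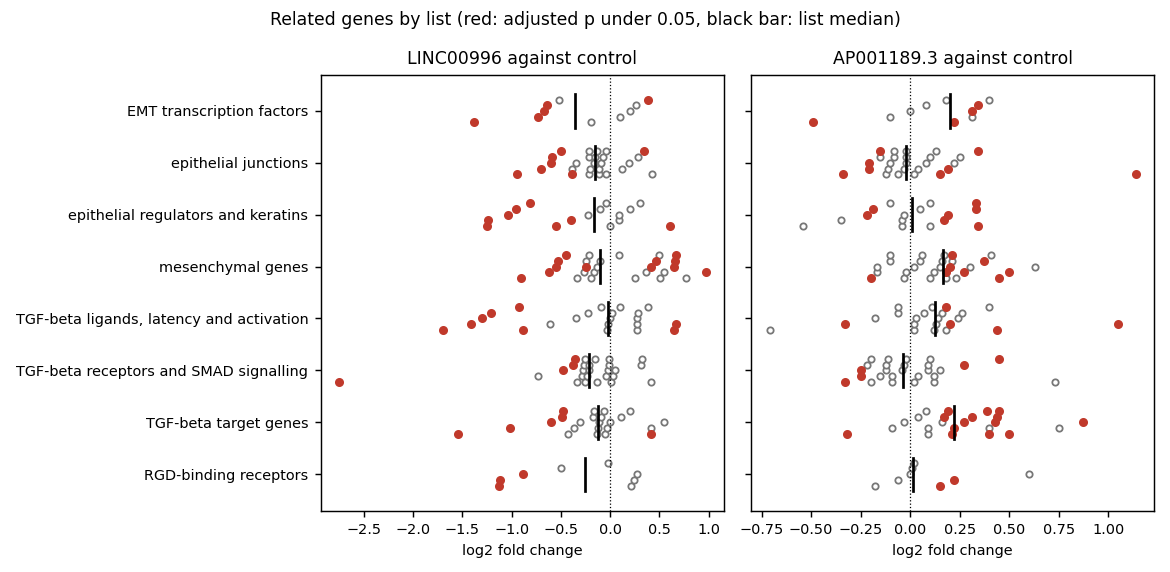
Log2 fold change (x axes, which differ in range) of each related gene tested, by list, in LINC00996 against control and AP001189.3 against control; red points passed the adjusted p threshold of 0.05 and black bars are list medians. The TGF-beta target genes have a median of -0.12 with LINC00996 and 0.22 with AP001189.3.

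For each of the 8 genes, the pair of genes with the most similar log2 CPM over the 9 libraries was taken from 16560 genes by Pearson's r, as a description. For CDH1 these were GRB10 and CDCP1, both with r = 0.998, for FN1 DAPK1 (0.996) and RNF24 (0.995), and for ZEB1 PPFIBP1 (0.993) and ZNF766 (0.992). For TGFB1 they were CACNB1 and CEBPB (both 0.990), for TGFB2 SIRT1 (0.987) and CAPZA1 (0.978), and for TGFBI FAM220A (0.987) and PTTG1IP (0.985). VIM was nearest to FKBP1C (0.966) and CPEB2 (0.949), and CDH2 to TRIM33 (0.975) and FSD1L (0.974). The 9 points share the groups, the depth and the base composition of the libraries, and with so many genes high values arise for any pattern.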

How the data were processed

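The authors aligned reads with HISAT2 2.0.5 and counted them per gene with featureCounts 1.5.0-p3, per the labels, and deposited raw counts without normalization. They also deposited FPKM values, used here only to compare levels between genes. Coordinates are those of the count table (GRCh38). The library kit as described does not mark strand. The 9 genes and the related lists were chosen with earlier results of these data known. Related genes were named by adjusted p, up to 3 per list for LINC00996 against control and up to 2 for AP001189.3 against control. Values given beyond that, such as those of INHBA with LINC00996, and further genes, such as CDH5, COL3A1 and ITGB1, were chosen after they were seen. Some genes that the rule names are not reported here.

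Each comparison used its 6 libraries in edgeR 4.0.16 (R 4.3.3) with filterByExpr, TMM factors and the robust quasi-likelihood test. The Benjamini-Hochberg adjustment covered all genes tested. CPM use TMM factors, and log2 CPM a prior count of 2. Alternatives were DESeq2 1.42.0, other scalings and filters, all 9 libraries in 1 fit, a replicate block, a gene length offset, each library left out and other thresholds. The GC content offset (loess, span 0.75) was added after the data were seen. The procedure was tested on simulated data. Counting sets the precision of low genes such as SNAI2.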

Additional observations from a re-analysis of the deposited data

How the results depend on the processing

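In LINC00996 against control, the calls of CDH1 (log2 fold change -0.94 to -0.85), FN1 (-0.73 to -0.58) and ZEB1 (-0.86 to -0.60) held under all 15 alternatives that changed the fit or left out a library. The number of the 9 genes called there was 3, 4 with all 9 libraries in 1 fit (13.7% of all genes higher and 14.4% lower) and 5 under the GC content offset (19.2% and 18.2%). With a library left out it ranged from 3 to 5, the highest without LINC00996 replicate 1 (15.9% and 17.3%). In AP001189.3 against control the number was 1, and 3 with library size alone (1608 of all genes higher and 1719 lower), 3 with the replicate block (12.2% of all genes higher and 9.46% lower), and 0 with all 9 libraries in 1 fit (2.08% and 0.562%), with the gene length offset (9.64% and 9.04%), with the GC content offset and at an adjusted p under 0.01. With a library left out it ranged from 1 to 2. In LINC00996 against AP001189.3 the number was 4, and 2 to 4 with a library left out, the lowest without AP001189.3 replicate 1. With an added log2 fold change of at least 1, it was 0 in all 3 comparisons.

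The check of pairing by replicate number was mixed: same-numbered deviations correlated by -0.023 to 0.159, and replicates 1 and 3 but not 2 correlated best with their own number. With the replicate block, CDH1 (edgeR adjusted p = 0.0460) and ZEB1 (0.0473) joined TGFB1 in AP001189.3 against control. Over all genes in LINC00996 against control, 3588 were called, 6018 under the GC content offset, 1925 without control replicate 2 and 5481 without LINC00996 replicate 1. In AP001189.3 against control 3180 were called, and 437 with all 9 libraries in 1 fit.

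Some differences that were not called changed sign. With 1 library left out, TGFB2 in LINC00996 against control ranged from -0.26 to 0.01, and in LINC00996 against AP001189.3 VIM ranged from -0.09 to 0.01 and TGFB2 from -0.17 to 0.11, each highest without LINC00996 replicate 1. In the latter comparison VIM was 0.01 and TGFB2 0.03 with library size alone, and TGFB2 was 0.02 with the gene length offset. The cause of these changes was not tested.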
